A study of Mus musculus with 8 samples.

Results

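The genes of the amino acid transporter families were described in 8 RNA sequencing libraries of mouse CD8+ T cells. The members were the rows of the deposited count table whose symbols name a gene of the SLC1, SLC6, SLC7, SLC36, SLC38 or SLC43 family or a heavy chain of the SLC3 family, and 61 of the 41730 rows met this rule. The T cells were OT-I cells, whose transgenic T cell receptor recognises SIINFEKL, a peptide of ovalbumin. They were sorted after culture with SIINFEKL-pulsed, LXR-/- dendritic cells grown from bone marrow, with RGX-104, a synthetic agonist of the liver X receptors (LXR), at 2 µM (4 libraries) or with DMSO (control, 4 libraries). The dendritic cells of both groups lacked LXR, whereas the labels name no LXR deletion for the T cells, so the comparison asks what the agonist changed in the T cells when the presenting cells could not respond through LXR. Separate animals or cultures are not named for the samples of a group. The p-values therefore rest on the spread among these samples alone, and that spread may be technical.

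Amino acid transporters carry amino acids across the cell surface and the lysosomal membrane. Exchangers of the SLC1 and SLC7 families swap an internal amino acid for an external one, sodium-coupled SLC38 carriers accumulate glutamine and other neutral amino acids, and SLC36 and some SLC38 proteins act at the lysosome. Several SLC7 light chains reach the surface only when bound to the heavy chain 4F2hc (CD98), the product of Slc3a2. Activated T cells take up large amounts of glutamine, leucine, methionine and arginine, and Slc7a5, Slc3a2 and Slc1a5 are known to be induced on activation.

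Library totals lay between 30642316 and 37714355 counts. Levels are given in CPM, counts scaled to the same TMM-adjusted library size, and changes as the log2 fold change of RGX-104 over control. Filtering for low counts left 29 of the 61 members and 13290 genes in all. The T cell genes Cd3d, Cd3e, Cd8a, Cd8b1 and Lck summed to 1840 to 1880 CPM in RGX-104 libraries and 1950 to 2050 CPM in control libraries, with 1 higher (Lck) and 3 lower (Cd3e, Cd8a and Cd8b1) of 5 tested, against 8.95% of all tested genes called. The 11 markers of dendritic cells and macrophages summed to 117 to 129 CPM in RGX-104 and 108 to 118 CPM in control libraries. Of these Cd74 was higher (edgeR adjusted p = 6.12e-06), at 33.2 CPM with RGX-104 and 26.5 CPM in controls. Cst3 (48.8 CPM with RGX-104, 48.1 CPM in controls) and Batf3 (39.1 CPM with RGX-104, 37.9 CPM in controls) did not pass. Lyz2, Csf1r, Spi1, Tyrobp, Fcer1g and Xcr1 had at most 13 counts in any library, Flt3 at most 17 and Itgax at most 34, and none of these was at 0 in all libraries. B cell markers summed to at most 4.70 CPM in an RGX-104 and 5.45 CPM in a control library. The lists for CD4 T cells, NK cells, erythroid cells and neutrophils each summed to at most 0.619 CPM in any library. The part of these shifts in the values below was not tested. In bulk RNA fewer cells of a type and less RNA per cell cannot be told apart.

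Few of the transporter genes differed with RGX-104. With the quasi-likelihood test of edgeR, 1 member was higher (Slc38a6) and 2 were lower (Slc7a3 and Slc6a9) of the 29 tested, at an adjusted p under 0.05. That is 10.3% of the tested members, against 8.95% of all tested genes called in either direction, 4.82% higher and 4.13% lower. The share lay near the background in this setting, but that reading depended on the setting. With DESeq2 3 of 24 tested members were called, against 9.06% of all genes, and with limma-voom 7 of 29, against 9.84%. The median log2 change was 0.02 over the 29 members and 0.00 over all tested genes, and the median size of change was 0.09 against 0.07. Slc38a6, Slc7a3 and Slc6a9 were called under all 20 alternative settings tried. These include thresholds of 0.01 and 0.10 on the main fit, and at 0.10 the call was fixed by the call at 0.05. Calls of other members depended on the setting, with 5 higher and 2 lower without control replicate 1 and 2 higher and 2 lower without RGX-104 replicate 3. Of all genes, 10% and 6.43% were called without these libraries. With the column number as a block, 5 were higher and 5 lower, while 15.2% of all genes were then called.

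**Figure D1:**
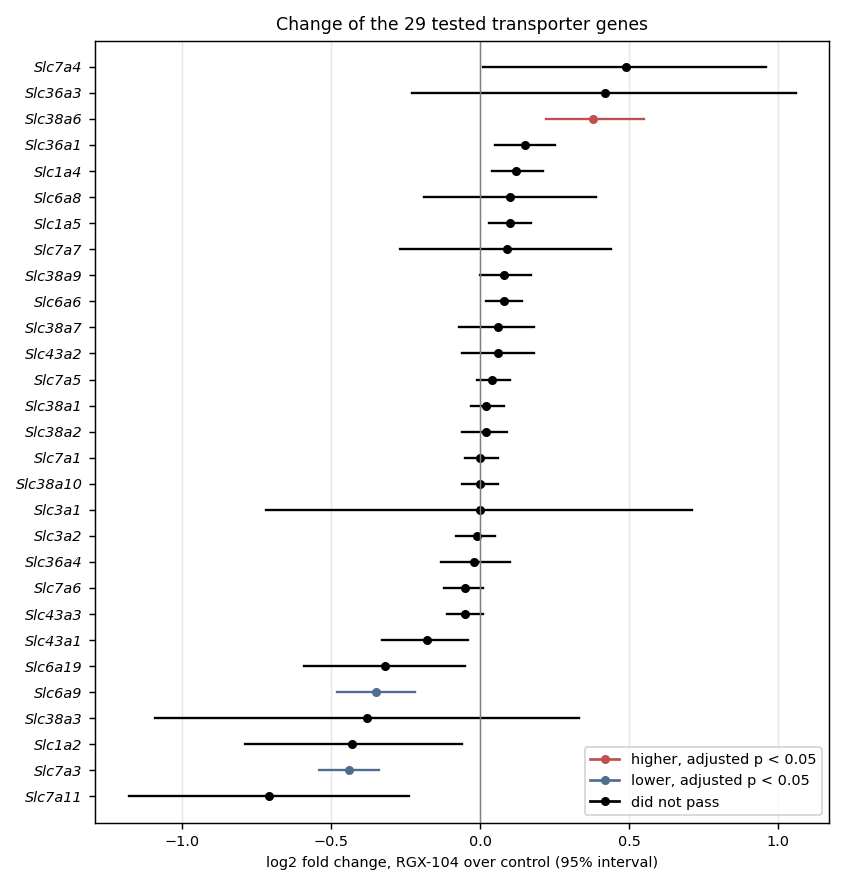
Log2 fold change of RGX-104 over control for the 29 tested members, with 95% intervals from the edgeR fit as lines. Slc38a6 lies to the right of 0, Slc7a3 and Slc6a9 lie to the left, and the abundant members such as Slc7a5 (0.04), Slc38a1 (0.02) and Slc7a1 (0.00) have narrow intervals close to 0.

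The most abundant transporter transcripts were ranked by level per length, in CPM per kilobase (kb) of the longest annotated transcript. Slc1a5, encoding the glutamine exchanger ASCT2, stood at 188 ± 8.37 CPM per kb in RGX-104 and 176 ± 7.94 CPM per kb in control libraries (SD, n = 4 each). Slc7a5, encoding the large neutral amino acid exchanger LAT1, stood at 180 ± 2.68 and 175 ± 5.17 CPM per kb in RGX-104 and control libraries. By this length these leading members did not differ from each other beyond their spread in either group. Slc3a2, encoding the heavy chain of LAT1, followed at 102 ± 3.98 CPM per kb in RGX-104 and 103 ± 3.49 in control libraries. Slc38a1 and Slc38a2, encoding the sodium-coupled glutamine carriers SNAT1 and SNAT2, were at 58.9 and 51.0 CPM per kb in RGX-104 and at 58.1 and 50.5 in control libraries. The taurine transporter gene Slc6a6 was within the spread of Slc38a2 in both groups, at 52.4 ± 1.48 CPM per kb in RGX-104 and 49.6 ± 1.75 in control libraries. Slc7a1, Slc43a3, Slc38a10 and Slc7a6 completed the 10 highest, at 32.8 to 45.0 CPM per kb in RGX-104 and 34.1 to 44.9 in control libraries. With merged exons in place of the longest transcript the same 10 genes led, and with the median transcript 9 of them did, and both changed the order. Slc7a5 then stood above Slc1a5 by either length. With merged exons they were at 170 and 127 CPM per kb in RGX-104 and at 166 and 119 in control libraries.

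**Figure D2:**
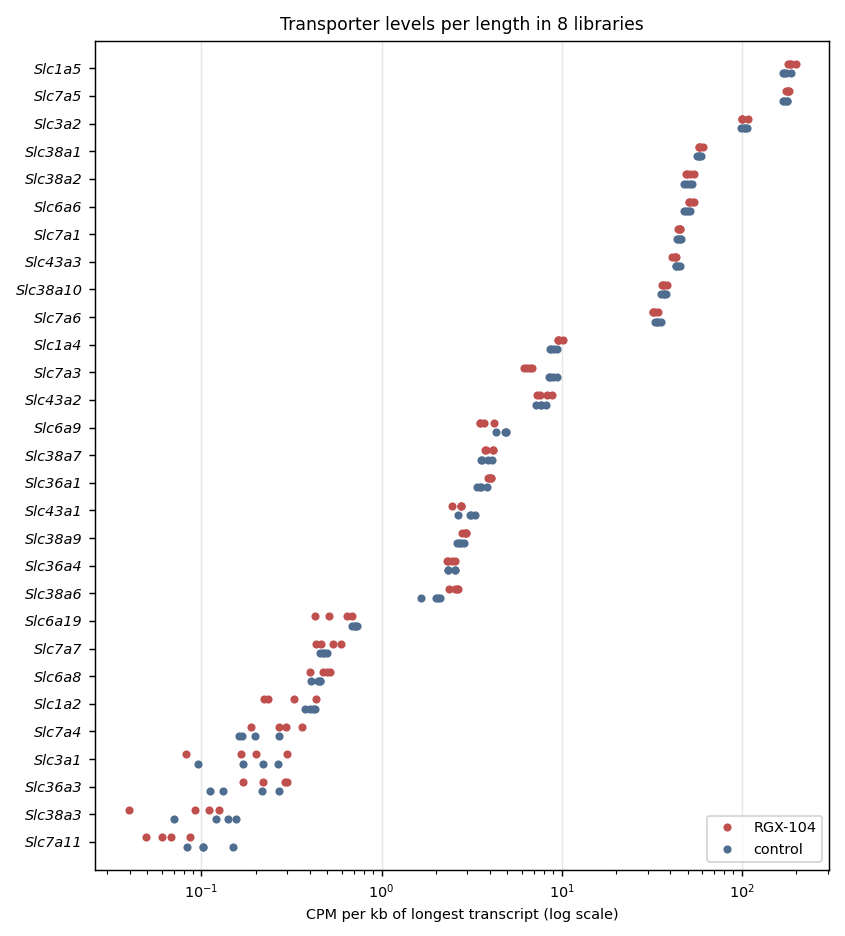
Level of each of the 29 tested members per kilobase of its longest transcript, on a log axis, with 1 point per library for RGX-104 (upper row of each gene) and control (lower row). Slc1a5 and Slc7a5 lead near 180 CPM per kb, 10 genes lie above 30, and the points of both groups fall on each other for most genes.

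A second tier lay below these. Slc1a4 was at 9.73 CPM per kb in RGX-104 and 8.94 in control libraries, and Slc38a6, the lowest gene of the tier in control libraries, was at 2.55 CPM per kb in RGX-104 and 1.96 in control libraries. The other 9 tested members were under 1 CPM per kb in every library. Of the 32 members that did not pass the filter, 16 had 0 counts in every library, 15 had at most 4 counts in any library, and Slc7a8, encoding the exchanger LAT2, had at most 13. A count of 0 allows a level of up to 0.0809 to 0.0971 CPM in these libraries (3 counts; counting error only). The genes at 0 included those of the serotonin (Slc6a4) and noradrenaline (Slc6a2) transporters and of the system N carrier SNAT5 (Slc38a5). Neighbouring family members differed widely in level. On chromosome 15 Slc38a1 (96571418 to 96643438, GRCm38.p6) and Slc38a2 (96687392 to 96699728) were among the most abundant members, while Slc38a4 (96994816 to 97055956) had 0 counts in every library. On chromosome 11 Slc36a1 was at 21.0 CPM in RGX-104 and 18.9 CPM in control libraries, Slc36a3 at 0.451 and 0.337 CPM, and Slc36a2, which lies between them, at 0 counts in every library.

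Promoter sequences are shown for the called member Slc38a6, which has 1 window, and for 3 members close to the threshold (edgeR adjusted p = 0.0506 for Slc36a1, 0.0510 for Slc7a11 and 0.0554 for Slc1a4) whose promoters hold a motif known for control by nutrients. The first motif was TGATGNAA, the core of the C/EBP-ATF response element through which the transcription factor ATF4 acts when amino acids are scarce. The second was the E-box CACGTG, bound by MYC and by the lysosomal regulators TFEB and TFE3. RefSeq windows of GRCm38.p6, from 250 bases before to 50 after a start, were found for 43 of the 61 members, and both strands were searched. Slc7a3, Slc7a5 and Slc1a5 were among the members without a window, so their promoters were not searched. The sequences run 5′ to 3′ along the gene and end 20 bases after the start, with matches in capitals.
Slc7a11 (chr3:50443594-50443863, minus strand): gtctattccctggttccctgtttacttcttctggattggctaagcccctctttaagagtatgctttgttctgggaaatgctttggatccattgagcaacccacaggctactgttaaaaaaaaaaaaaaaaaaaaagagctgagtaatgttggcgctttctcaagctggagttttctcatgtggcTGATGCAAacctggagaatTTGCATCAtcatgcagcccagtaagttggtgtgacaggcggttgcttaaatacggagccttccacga
Slc1a4 (chr11:20332694-20332963, minus strand): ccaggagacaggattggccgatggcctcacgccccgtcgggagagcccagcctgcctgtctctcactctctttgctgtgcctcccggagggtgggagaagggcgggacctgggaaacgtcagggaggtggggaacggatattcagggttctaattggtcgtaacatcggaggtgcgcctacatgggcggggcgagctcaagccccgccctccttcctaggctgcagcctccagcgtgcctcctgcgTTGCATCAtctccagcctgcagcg
Slc36a1 (chr11:55204090-55204359, plus strand): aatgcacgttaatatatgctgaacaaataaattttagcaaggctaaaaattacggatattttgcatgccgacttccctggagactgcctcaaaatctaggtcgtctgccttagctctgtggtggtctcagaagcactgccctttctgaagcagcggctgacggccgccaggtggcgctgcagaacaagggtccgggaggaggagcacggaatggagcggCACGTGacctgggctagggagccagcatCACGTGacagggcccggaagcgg
Slc38a6 (chr12:73286598-73286867, plus strand): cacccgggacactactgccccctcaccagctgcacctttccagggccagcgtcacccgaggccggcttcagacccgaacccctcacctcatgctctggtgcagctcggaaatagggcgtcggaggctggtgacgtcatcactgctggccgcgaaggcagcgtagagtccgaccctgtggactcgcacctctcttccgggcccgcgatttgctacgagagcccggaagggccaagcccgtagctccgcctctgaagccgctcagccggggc

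The Slc7a11 window holds TGATGNAA 66 and, on the other strand, 47 bases before its start. In Slc1a4 a match on the other strand begins 4 bases before the start. Slc36a1 holds CACGTG 31 and 3 bases before its start, and the window of Slc38a6 holds neither motif, nor do the 3 windows of Slc6a9. Over all 32851 windows TGATGNAA was in 3.97% and CACGTG in 7.15%, and of the members' 64 windows they were in 5 and in 9, from 4 and from 9 of the 43 members. Members not shown with a match included Slc7a7 (TGATGNAA, edgeR adjusted p = 0.817), Slc38a7 (CACGTG, 0.642) and Slc43a1 (CACGTG, 0.104). The remaining matches lay in members too low to be tested, such as Slc6a21 and Slc1a6. The matches are thus not confined to members near the threshold. No member held both motifs, and no matches overlapped in the windows shown. The DR4 pattern, an ideal LXR site, was in 0.0152% of all windows and in 0 of the members' windows. A match is only a run of letters and does not show binding.

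The exchangers bound to 4F2hc included some of the most abundant members, and none of them passed the test. Slc7a5 was at 632, 632, 621 and 644 CPM in the RGX-104 libraries, against 628, 600, 596 and 630 CPM in the control libraries. The groups overlapped, and the change of 3.00% had a 95% interval from -0.844% to 7.00% (edgeR adjusted p = 0.365). Slc3a2 was at 283, 281, 282 and 304 CPM with RGX-104 and 292, 277, 289 and 301 CPM in controls, again with overlapping groups and an interval from -5.14% to 3.62% (edgeR adjusted p = 0.860). Slc7a6, whose product y+LAT2 exchanges arginine for neutral amino acids, was at 129, 120, 121 and 123 CPM with RGX-104 and 133, 127, 124 and 128 CPM in controls (edgeR adjusted p = 0.308). Its relative Slc7a7 was at 1.16 and 1.08 CPM in RGX-104 and control libraries. Reads of Slc7a5 per read of Slc3a2 were 2.23, 2.25, 2.20 and 2.12 with RGX-104 and 2.15, 2.16, 2.06 and 2.09 in controls. The ratio thus overlapped between the groups, and so did that of the summed 4F2hc light chains to Slc3a2, at 2.64 ± 0.0771 with RGX-104 and 2.57 ± 0.0654 in controls.

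Slc7a11 encodes another light chain of 4F2hc, the cystine for glutamate exchanger xCT, and was low. It was at 0.453, 0.792, 0.557 and 0.628 CPM in RGX-104 libraries and 1.38, 0.767, 0.938 and 0.943 CPM in control libraries. Control replicate 2 lay below RGX-104 replicate 2, so the groups overlapped. The log2 change of -0.71 ± 0.23 (SE) did not pass the test (edgeR adjusted p = 0.0510). It rested on 14 to 48 counts per library. DESeq2 and the minimum count of 50 gave no test of the gene. Over the other 18 alternatives the adjusted p ranged from 0.0272 to 0.163. Without control replicate 2 or without RGX-104 replicate 2 the gene was called lower. The same held with no filter and with the block by column number. At a threshold of 0.10 the gene was called too, which follows from the main adjusted p.

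Of the cationic transporter genes, Slc7a3 fell in RNA and Slc7a1 did not pass the test. Slc7a1, encoding the main arginine and lysine carrier CAT1, was at 325, 319, 322 and 327 CPM with RGX-104 and 330, 327, 314 and 318 CPM in controls. These groups overlapped, and the 95% interval of the change, -3.41% to 4.20%, was among the narrowest of the members (edgeR adjusted p = 0.939). Slc7a3, encoding the related carrier CAT3, was at 18.8, 17.7, 17 and 18.3 CPM in RGX-104 libraries, against 26.0, 23.4, 23.7 and 24.5 CPM in control libraries. Every RGX-104 library lay below every control library. The gene fell by 0.44 ± 0.05 on the log2 scale (SE; edgeR adjusted p = 3.26e-07), a change of -26.5% with an interval from -31.4% to -21.2%. The gene lies on chromosome X from 101079146 to 101090452 (GRCm38.p6) and overlaps Snx12, so part of its reads could belong to that gene. Snx12 itself was at 47.1 ± 1.36 CPM with RGX-104 and 47.4 ± 2.59 CPM in controls (SD, n = 4 each; edgeR adjusted p = 0.926). The class as a whole summed to 341 ± 4.17 CPM with RGX-104 and 347 ± 8.23 CPM in controls, and the CAT2 gene Slc7a2 had at most 1 count in any library.

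The glycine transporter gene Slc6a9 (GlyT1) was the other member that fell. It was at 14.6, 12.3, 12.2 and 12.9 CPM in RGX-104 libraries, against 17.1, 16.8, 15.1 and 17.1 CPM in control libraries. The groups did not overlap, although RGX-104 replicate 1 came close to control replicate 3. The log2 change was -0.35 ± 0.06 (SE; edgeR adjusted p = 4.05e-04). The gene lies on chromosome 4 from 117835258 to 117869305 (GRCm38.p6) and overlaps Ccdc24, which was at 1.22 CPM with RGX-104 and 0.935 CPM in controls and did not pass the test (edgeR adjusted p = 0.228). Among the other SLC6 genes the taurine transporter Slc6a6 was at 328, 317, 316 and 335 CPM with RGX-104 and 320, 305, 294 and 310 CPM in controls. Its groups overlapped, and it did not pass (edgeR adjusted p = 0.113), but it was called higher without control replicate 1 and with the block by column number. The creatine transporter gene Slc6a8 was at 1.87 ± 0.205 CPM with RGX-104 and 1.74 ± 0.0955 CPM in controls.

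Slc6a19 and Slc1a2 were singled out after their values were seen. Slc6a19, encoding the neutral amino acid transporter B0AT1 of gut and kidney, was at 2.14, 2.69, 2.88 and 1.79 CPM with RGX-104 and 2.98, 3.07, 2.98 and 2.88 CPM in controls. The RGX-104 values were the more scattered and lay below all controls, although replicate 3 matched the lowest control in the digits printed, and the gene did not pass (edgeR adjusted p = 0.140). Slc1a2, encoding the glutamate transporter GLT-1, was at 5.02, 2.72, 2.57 and 3.80 CPM with RGX-104 and 4.67, 4.83, 4.36 and 4.96 CPM in controls. RGX-104 replicate 1 was above every control library and the other 3 were below them, and the gene did not pass (edgeR adjusted p = 0.154). Slc1a2 was called lower without RGX-104 replicate 1, with limma-voom, with no filter and with the block by column number.

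Neither of the small neutral exchangers of SLC1 passed the test. Slc1a5 was at 562, 522, 506 and 528 CPM in RGX-104 libraries and 527, 481, 478 and 493 CPM in control libraries. The highest control library lay within the range of the RGX-104 libraries, and the change of 6.92% (95% interval 1.87% to 12.2%) did not pass (edgeR adjusted p = 0.0795). Over the alternatives its adjusted p ranged from 0.00340 to 0.357. It was called higher in 7 of the 20, without control replicate 1 and without RGX-104 replicate 3 among them. The threshold of 0.10 on the main fit is also counted here. Its relative Slc1a4 (ASCT1) was at 40.1, 38.1, 37.3 and 37.4 CPM with RGX-104 and 36.9, 34.1, 33.9 and 35.4 CPM in controls. These groups did not overlap, but the change of 8.90% did not pass either (edgeR adjusted p = 0.0554). It passed in 6 of the 20 alternatives, the fit without control replicate 1 and the threshold of 0.10 on the main fit among them. Reads of Slc1a5 per read of Slc1a4 were 13.8 ± 0.252 with RGX-104 and 14.1 ± 0.135 in controls, and the groups overlapped.

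Neither of the abundant sodium-coupled glutamine carriers passed the test. Slc38a1 was at 423, 425, 423 and 441 CPM with RGX-104 and 423, 434, 411 and 419 CPM in controls, with a 95% interval of the change from -2.35% to 5.40% (edgeR adjusted p = 0.696). Slc38a2, known to be induced when amino acids run low, was at 331, 302, 300 and 316 CPM with RGX-104 and 316, 294, 302 and 324 CPM in controls (interval -3.77% to 6.15%; edgeR adjusted p = 0.842). In both genes the groups overlapped. Slc38a10, a member of less certain substrate, was at 175, 168, 166 and 170 CPM with RGX-104 and 173, 170, 170 and 164 CPM in controls (edgeR adjusted p = 0.960).

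Slc38a6, encoding the little studied family member SNAT6, was the single member that rose. It was at 10.3, 10.5, 9.25 and 10.1 CPM in RGX-104 libraries, against 7.89, 8.08, 8.30 and 6.52 CPM in control libraries. All RGX-104 libraries lay above all control libraries, and the log2 change was 0.38 ± 0.08 (SE; edgeR adjusted p = 0.00156), or 30.6% with an interval from 16.9% to 45.9%. The gene lies on chromosome 12 from 73286739 to 73361998 (GRCm38.p6) and overlaps Trmt5. Trmt5 was at 36.5 ± 1.5 CPM with RGX-104 and 37.6 ± 1.73 CPM in controls (SD, n = 4 each; edgeR adjusted p = 0.594).

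At the lysosome, Slc36a1, encoding the proton-coupled amino acid transporter PAT1, was at 21.3, 21.3, 20.5 and 20.8 CPM with RGX-104 and 20.3, 18.8, 18.5 and 17.8 CPM in controls. The groups did not overlap, yet the change of 11.1% (95% interval 3.65% to 19.1%) fell just short of the threshold (edgeR adjusted p = 0.0506). It was called higher in 7 of the 20 alternatives, the fit without control replicate 1 and the threshold of 0.10 on the main fit among them. Slc38a9, encoding the arginine sensor of mTORC1 at the lysosome, was at 26.3, 25.0, 26.3 and 25.8 CPM with RGX-104 and 25.4, 23.9, 24.6 and 23.4 CPM in controls (edgeR adjusted p = 0.249). Its groups overlapped. Slc36a4 (PAT4) was at 16.7, 16.1, 15.3 and 15.1 CPM with RGX-104 and 15.2, 16.8, 16.8 and 15.2 CPM in controls (edgeR adjusted p = 0.883). Slc38a7, whose product exports glutamine from the lysosome, averaged 13.2 CPM with RGX-104 and 12.7 CPM in controls and did not pass.

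Of the facilitative SLC43 carriers, Slc43a1 (LAT3) was at 9.65, 10.9, 10.8 and 10.8 CPM with RGX-104 and 12.2, 12.3, 10.5 and 12.9 CPM in controls. Control replicate 3 lay among the RGX-104 libraries, and the change of -11.9% did not pass (edgeR adjusted p = 0.104). The gene was called lower without control replicate 3 and with the block by column number. Slc43a2 (LAT4) ranged from 52.0 to 62.8 CPM with RGX-104 and from 51.2 to 58.6 CPM in controls, and did not pass. Slc43a3, whose product carries purine nucleobases rather than amino acids, was at 111, 113, 112 and 108 CPM with RGX-104 and 113, 119, 113 and 116 CPM in controls (edgeR adjusted p = 0.341).

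**Figure D3:**
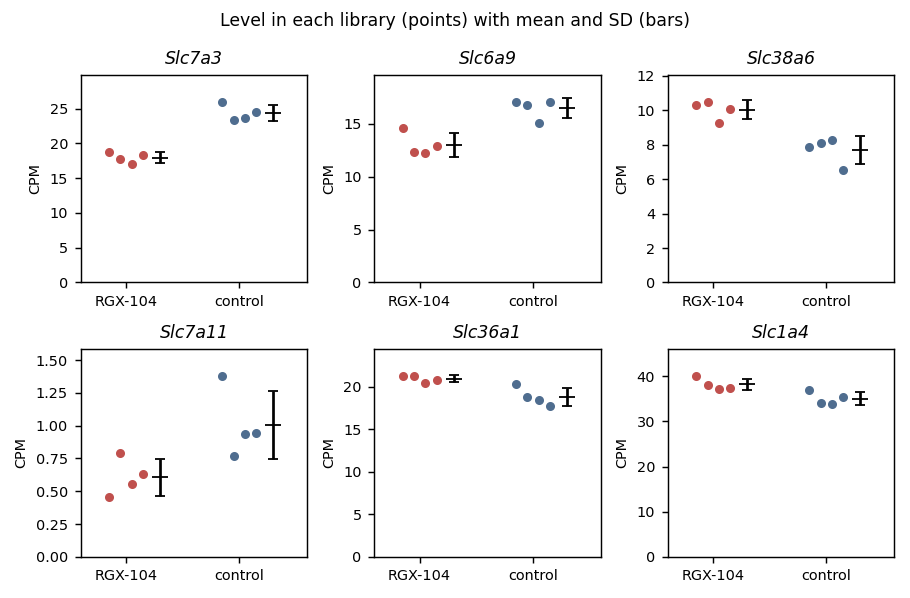
CPM in each library for 6 members, with RGX-104 on the left and control on the right, points for libraries and black bars for the mean and SD; every vertical axis starts at 0. Slc7a3 and Slc6a9 are lower and Slc38a6 is higher in all RGX-104 libraries, Slc7a11 overlaps, and Slc36a1 and Slc1a4 differ by 11.1% and 8.90% without passing the test.

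The groups did not overlap in 6 of the 29 members (20.7%), namely Slc7a3, Slc6a9, Slc6a19, Slc38a6, Slc36a1 and Slc1a4, against 14.5% of all tested genes. An unadjusted p under 0.05 was reached by 12 members (41.4%), against 22.2% of all tested genes. None of the 10 members at or above a mean of 100 CPM was called by edgeR or DESeq2, limma-voom called 1 (Slc1a5), and 2 had an unadjusted p under 0.05 with edgeR. Of all genes at that level edgeR called 12.9%. For 16 of the 19 tested members of at least 10 CPM the 95% interval lay wholly within a change of 20% up or down, the exceptions being Slc7a3, Slc6a9 and Slc43a1. These intervals limit how large a change these abundant genes could have had between the sampled groups. They do not show that the levels were equal.

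All 61 members together summed to 3480 ± 66.1 CPM with RGX-104 and 3410 ± 75.4 CPM in controls (SD, n = 4 each). The 4F2hc light chains held 21.8% of this sum in both groups and the system A carriers Slc38a1, Slc38a2 and Slc38a4 held 21.3% with RGX-104 and 21.5% in controls. The small neutral exchangers held 16.3 ± 0.485% with RGX-104 and 15.6 ± 0.381% in controls. The cationic carriers held 9.82 ± 0.105% with RGX-104 and 10.2 ± 0.175% in controls. The glycine and proline class, nearly all of it Slc6a9, held 0.374% with RGX-104 and 0.485% in controls. These sums are a description, and longer transcripts weigh more in them.

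**Figure D4:**
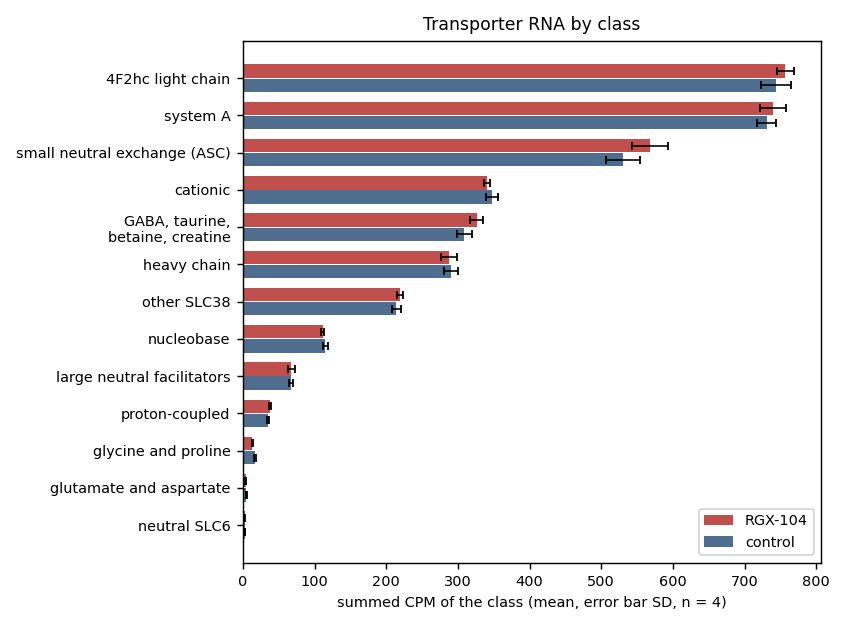
Summed CPM of each class of members with at least 1 CPM, as the mean of 4 libraries with the SD as error bar, RGX-104 above control in each pair. The 4F2hc light chains and system A carriers lead, at 757 and 740 CPM with RGX-104 and 744 and 731 CPM in controls, and the bars of a pair are of similar length.

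Other genes of amino acid handling were read from lists chosen with earlier results of these data known. Of 38 tested genes of amino acid sensing by mTORC1, 1 was higher and 0 lower (2.63% called, against 8.95% of all genes). It was Fnip1, encoding a partner of folliculin in the control of Rag GTPases, at 72.8, 66.1, 68.2 and 70.6 CPM with RGX-104 and 59.3, 60.8, 62.5 and 62.4 CPM in controls (edgeR adjusted p = 0.00117). Its groups did not overlap. The 38 genes include Lars2, of the mitochondrial leucyl-tRNA synthetase, beside Lars, of the cytosolic enzyme. Neither passed (edgeR adjusted p = 0.472 and 0.11). Leaving out control replicate 4 or RGX-104 replicate 2 added Rragd, encoding a Rag GTPase, and leaving out RGX-104 replicate 4 added Sesn1, encoding a sestrin, for 2 higher in each case. Of 17 tested amino acid transporter genes outside the families above, such as the mitochondrial carriers Slc25a12 and Slc25a38 and the aromatic amino acid carrier Slc16a10, neither edgeR nor DESeq2 nor limma-voom called any (0 of 17), and 1 (Sfxn1, a mitochondrial serine transporter, named after its value was seen) had an unadjusted p under 0.05. The median log2 change of this list was -0.02.

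Of 23 tested regulators of transporter transcription or turnover, 3 were lower and 0 higher (13.0% called, against 8.95% of all genes), with a median log2 change of 0.03. Myc, encoding a transcription factor known to drive amino acid transporter genes in activated T cells, was at 433, 417, 423 and 464 CPM with RGX-104 and 481, 499, 524 and 545 CPM in controls. It fell by 0.24 ± 0.04 on the log2 scale (SE; edgeR adjusted p = 7.34e-04), with all RGX-104 libraries below all controls. Hif1a fell by 0.13 ± 0.03 (edgeR adjusted p = 0.00718) and Trib3, an inhibitory target gene of ATF4, by 0.19 ± 0.05 (edgeR adjusted p = 0.0146). Without control replicate 1, 5 of the list were lower. Hif1a lost its call with 1 surrogate variable, and Trib3 lost its own without RGX-104 replicate 4 and at an adjusted p under 0.01. Both lost it with RGX-104 libraries summed in pairs. Atf4, named after its values were seen, was at 395, 376, 368 and 394 CPM with RGX-104 and 367, 339, 350 and 377 CPM in controls, with overlapping groups (edgeR adjusted p = 0.0711). It was called higher without control replicate 4 and without RGX-104 replicate 3. Txnip, encoding a protein known to restrain glucose uptake and likewise named after its values were seen, was at 54.8, 65.4, 69.9 and 66.7 CPM with RGX-104 and 73.0, 83.9, 95.8 and 89.2 CPM in controls. Its groups did not overlap, and the log2 change of -0.41 ± 0.11 (SE) did not pass (edgeR adjusted p = 0.0712). It was called lower with DESeq2, with limma-voom and without control replicate 1.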

How the data were processed

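T cells were purified by FACS, and their total RNA was extracted with a Norgen kit and sequenced from Illumina TruSeq libraries, per the labels. The file the authors deposited holds unnormalized whole-number counts of reads for each gene. Per the submitters' processing notes, cutadapt 2.10, STAR 2.7.5, R 4.1.0 and DESeq2 1.4 were used with genome build GRCm38. How reads were counted, on which annotation and with what strand setting, is not given in the sources used here, so reads of overlapping genes cannot be told apart. The 4 control columns match numbered samples, whereas the RGX-104 columns give only their group and are numbered by column. Slc1a1 has a second row for a scaffold copy, which held 0 counts.

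Genes were kept by filterByExpr (minimum count 10, minimum total 15) and tested in R 4.3.3 with edgeR 4.0.16 (quasi-likelihood F-test), with TMM scaling, robust fitting and treatment as the only term. P-values were adjusted by Benjamini-Hochberg over all 13290 genes, with a threshold of 0.05. SEs and 95% intervals were derived from the F statistic. Coordinates are from RefSeq GRCm38.p6, and transcript lengths from GENCODE M21 (GRCm38) for all 61 members. Library totals were 30642316 to 37714355. Pairs of libraries within a group had a chi-square of 1.34 (RGX-104 replicates 2 and 3) to 6.32 per degree of freedom, so no pair agreed within counting noise. Alternatives were DESeq2 1.42.0, limma-voom (limma 3.58.1), other scalings, filters and thresholds, 1 surrogate variable (sva 3.50.0), a block by column number, summed scaffold copies and leaving out each library. Summing RGX-104 libraries in pairs was added after seeing the data. The members and lists were chosen with earlier results of these data known. Values in every library were planned for called members, the 10 of highest CPM and 15 transporters known in T cells or at the lysosome, and means or ranges for the rest; called genes of the other lists are named, at most 6 a list.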

Additional observations from a re-analysis of the deposited data

Results flagged for a closer look

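In 66 groups of 4 libraries checked, 5 held a library far from the other 3, where chance gives about 3.30. In RGX-104 replicate 4, Slc38a1 reached 441 CPM while the other RGX-104 libraries had 423 to 425, and Slc3a2 reached 304 CPM while the others had 281 to 283. In RGX-104 replicate 1, Slc43a1 was low (9.65 CPM, the others 10.8 to 10.9) and the ratio of Slc38a2 to Slc38a1 reads was high (0.782, the others 0.711 to 0.716). In control replicate 3, Slc6a9 was low (15.1 CPM, the others 16.8 to 17.1), and without that library the gene was still called lower.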

How the results depend on the processing

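Slc38a6, Slc7a3 and Slc6a9 kept direction and call under all 20 alternatives, with log2 changes of 0.31 to 0.42, -0.47 to -0.41 and -0.41 to -0.32. The thresholds of 0.01 and 0.10 reuse the main fit, so the call at 0.10 was fixed in advance. With limma-voom 4 members were higher and 3 lower (9.84% of all genes called), and with RLE scaling 2 and 2 (8.92%). Upper quartile scaling gave 4 higher and 2 lower (8.95%), and no filter 2 and 4 of 45 members tested (6.15%). A minimum count of 50 gave 3 higher and 2 lower of 23 members tested (10.9%). An adjusted p under 0.10 gave 4 higher and 3 lower (13%). When 1 library was left out, 1 to 5 members were higher and 2 to 3 lower (6.28% to 10% of all genes called). With the replicate block 5 were higher and 5 lower, and of all genes 1109 were higher and 906 lower, against 640 and 549. The deviations of same-numbered columns correlated at 0.0430 to 0.157. Columns of different numbers were not compared in this way, so these values cannot decide whether the numbers mark pairs. The labels name no pairs, and the main fit used none. At an adjusted p under 0.01, 344 genes were higher and 280 lower, with 1 surrogate variable 425 and 365, and with RGX-104 libraries summed in pairs 358 and 264. Without 1 library 462 to 719 were higher and 377 to 621 lower. In the mTORC1 list 2 were higher with limma-voom, no filter, a minimum count of 50 or a surrogate variable, 3 with upper quartile scaling, 4 higher and 1 lower at 0.10 or with the block, and 1 to 2 higher without 1 library. Of the regulators 1 (Atf4) was higher with limma-voom, upper quartile scaling, no filter, a threshold of 0.10 or the block, and 0 to 1 without 1 library. Lower regulators numbered 4 (Txnip added) with DESeq2, limma-voom or a threshold of 0.10, 5 with the block, 1 (Myc) with summed pairs, and 2 to 5 without 1 library. Members near no change turned sign: Slc7a1 to 0.00 with no filter, -0.01 with a surrogate variable and -0.01 to 0.02 without 1 library, Slc38a10 to -0.01 with limma-voom, 0.00 with no filter and -0.02 with a surrogate variable, and Slc3a2 to 0.02 with a surrogate variable. Without 1 library Slc38a10 ranged from -0.01 to 0.01, Slc38a2 from -0.01 to 0.04, Slc3a2 from -0.04 to 0.01 and Slc36a4 from -0.05 to 0.01. The causes were not tested. Depth limits members under about 1 CPM, such as Slc7a11, whose intervals are wide.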
